A study of Mus musculus with 6 samples.

Results

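The hypoxia-inducible factor (HIF) subunits are followed here in mouse blood neutrophils that lack phd3 and in wild-type neutrophils, all kept at 3% oxygen for 4 h. The members are the genes Hif1a, Epas1, Hif3a, Arnt and Arnt2. Every probe set annotated with one of these symbols was taken, whatever its signal, which gave 20 of 45037 probe sets and 5 of 18193 named genes. Hif1a had 4 probe sets, Epas1 2, Hif3a 6, Arnt 5 and Arnt2 3, and 0 of them were shared with another gene symbol.

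There were 3 phd3 null and 3 wild-type mice, and each array held the RNA of the neutrophils from 1 mouse. Both genotypes were on a C57 background. Neutrophils were obtained from peripheral blood by negative magnetic selection, which leaves them without a bound antibody and can leave other cells behind. The age and sex of the mice, and which part of phd3 was removed, are not given in the sources used here. All 6 samples had been in hypoxia, so the comparison is between genotypes at low oxygen and says nothing on induction by hypoxia. P-values of the plain genotype fit rest on the spread between these mice, moderated by a variance trend over all probe sets. In fits that include the sample number they rest on the spread left after genotype and number, with the same moderation.

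HIF is a pair of basic helix-loop-helix PAS proteins, an oxygen-regulated alpha subunit (HIF-1alpha from Hif1a, HIF-2alpha from Epas1, HIF-3alpha from Hif3a) and a beta subunit that is not degraded by oxygen (ARNT, and in some tissues ARNT2). In oxygen, prolyl hydroxylases of the PHD family, PHD3 among them, mark the alpha subunit for ubiquitination by the VHL ligase, so the step that PHD3 takes part in acts on protein and arrays of RNA do not read it. HIF-1alpha is known for keeping neutrophils alive and glycolytic in hypoxia, HIF-2alpha for its part in macrophages, endothelium and persisting inflammation.

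The labels and the cell type were checked first. Egln3, the present symbol of phd3, read 87.2, 29.6 and 73.5 in phd3 null mice 1 to 3, against 2088, 1733.9 and 327 in wild-type mice 1 to 3, by its brighter probe set. The genotypes did not overlap, though whether this probe set lies in the removed part is not known. Of 12 neutrophil markers 10 were measured, with S100a8 from 11102.8 to 25479.7 and Csf3r, the G-CSF receptor gene, from 1281.9 to 5118.4. Of these 10, 9 were above the array median on 6 of 6 arrays. The exception was Cxcr2, a chemokine receptor gene, at 840.1, 978.9 and 25.6 in phd3 null mice 1 to 3, against 558.9, 836.6 and 227 in wild-type mice 1 to 3. Csf1r, a receptor gene of monocytes, read 3537.6 to 11088.3, above Csf3r on each of the 6 arrays. The share of monocytes in the samples was not tested. Both arrays numbered 3 stood apart, having median correlations with the rest of 0.729 in the phd3 null and 0.776 in the wild-type array, where the remaining arrays had 0.821 to 0.847. The summed signal of 4 B cell markers was 2726.8 (phd3 null) and 2115 (wild type) on those 2 arrays and 154 to 415.4 on the others. The X-inactivation RNA Xist read 203.4, 72.9 and 98.5 in phd3 null mice 1 to 3, against 292, 1180.4 and 1061 in wild-type mice 1 to 3. Eif2s3y, a Y-linked gene, read 576.2, 585.4 and 144.3 in phd3 null, against 558.4, 54 and 38.7 in wild type, and the part of sex in the results was not tested.

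Hif1a was bright on all arrays, and its signal did not separate the genotypes. The probe set 1427418_a_at lay between the 96.9th and the 99.5th percentile of all probe sets of its array. It read 2414, 2059.6 and 1242.3 in phd3 null mice 1 to 3, against 3974.3, 2407.2 and 748 in wild-type mice 1 to 3. The phd3 null values lay inside the wild-type range, which held both the highest and the lowest of the 6 values, 5.31-fold apart. The difference on the log2(signal + 16) scale, phd3 null minus wild type, was -0.07 with a standard error (SE) of 0.53, a 95% interval from -1.20 to 1.06 and an adjusted p of 0.9997 in limma. Phd3 null mice averaged 1905 ± 601 and wild-type mice 2377 ± 1613 (SD, n = 3 each). With the replicate number as a block the SE was 0.24 and the interval ran from -0.57 to 0.43.

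Hif1a was read by more probe sets. Probe set 1416035_at read 263, 227.2 and 203.8 in phd3 null and 453.5, 208.6 and 149 in wild-type mice 1 to 3, a difference of -0.07 (SE 0.38). Probe set 1448183_a_at had 242.8, 131.4 and 157.4 in phd3 null and 373, 198.9 and 136.5 in wild-type mice 1 to 3, a difference of -0.32 (SE 0.40). The fourth, 1431981_at, was below the array median on all 6 arrays, at 36.2 to 47.6 in phd3 null and 5.3 to 47.4 in wild type. In the 3 probe sets above the median brightness wild-type sample 1 was the highest of the 6 arrays, which held for 13.2% of all probe sets.

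Within the same-numbered pairs the direction turned. For 1427418_a_at the log2 difference was -0.72 in pair 1, -0.22 in pair 2 and 0.72 in pair 3. The corresponding values were -0.75, 0.11 and 0.41 for 1416035_at and -0.59, -0.54 and 0.19 for 1448183_a_at. All 3 probe sets thus had phd3 null below wild type in pair 1 and above it in pair 3. Leaving out wild-type sample 1 turned the difference of 1427418_a_at to 0.44, and leaving out wild-type sample 3 took it to -0.75.

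**Figure D1:**
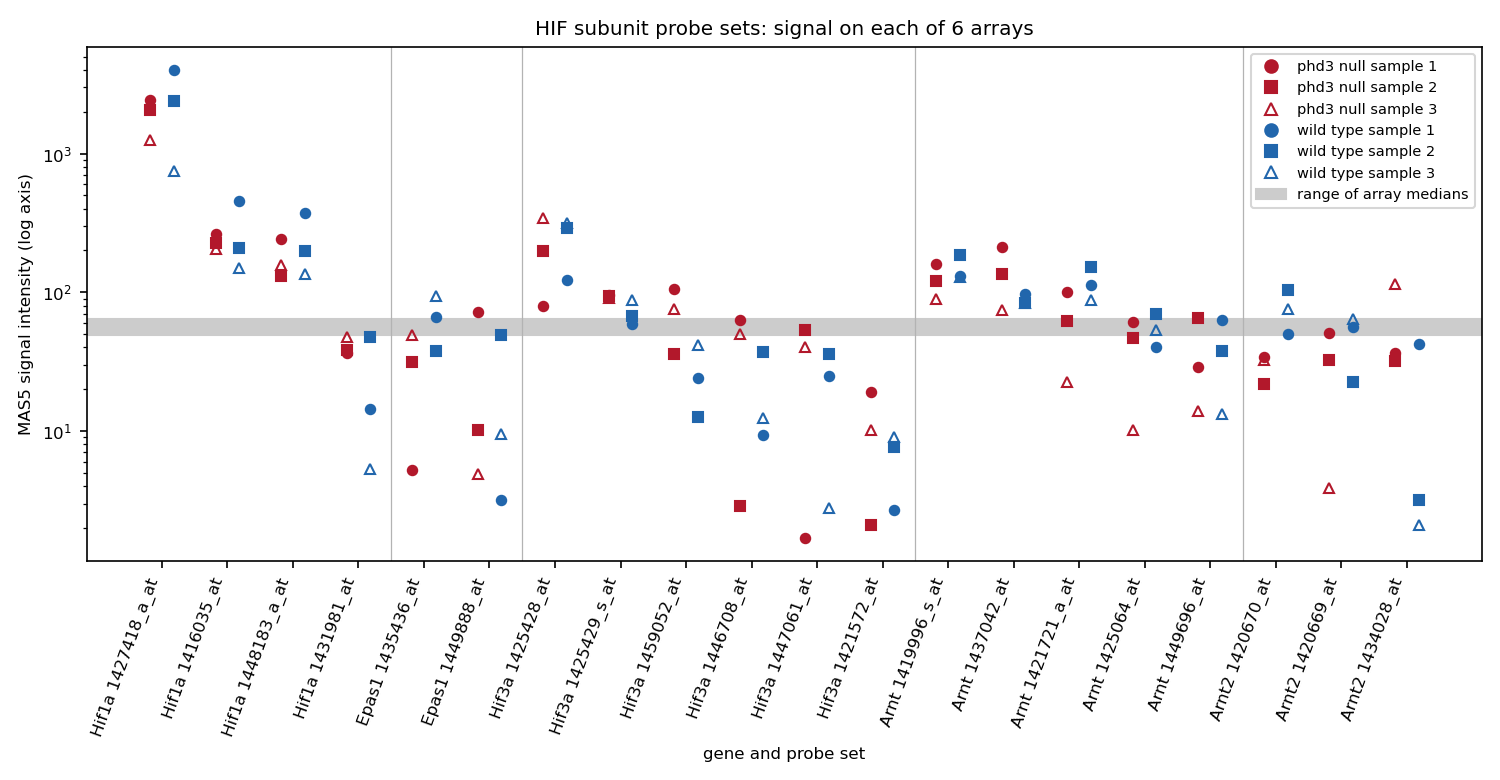
MAS5 signal (log axis) of the 20 HIF subunit probe sets on each of the 6 arrays, with phd3 null samples in red left of wild-type samples in blue. The grey band is the range of the array medians, 49.4 to 64.2. Hif1a 1427418_a_at lies far above it at 748 to 3974.3, while both Epas1 probe sets lie around or below it.

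Hif1a differed by sample number. An F-test of the number over its 3 levels, with genotype in the model, gave an adjusted p of 0.00191 for 1427418_a_at in limma. Its mean log2 level was 11.60, 11.13 and 9.94 in samples numbered 1, 2 and 3, a range of 1.67, where the median range of probe sets at or above the median brightness was 0.76. The array numbered 3 was the lowest of its genotype in both. Probe sets 1416035_at and 1448183_a_at had ranges of 0.93 and 0.96 and did not pass (adjusted p = 0.315 and 0.255 in limma). Without wild-type sample 3 the adjusted p for 1427418_a_at was 0.282 and the range 1.07, and with a constant prior variance the adjusted p was 0.478.

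Among the 20 probe sets, 2 passed this F-test, Hif1a 1427418_a_at and Hif3a 1425428_at, against 4.37% of all probe sets. Among the 9 at or above the median brightness they were also 2, against 8.71% of such probe sets. At an unadjusted p under 0.05 there were 4 of 20, against 12.8%. With a constant prior variance 0 of 45037 probe sets passed, so both calls rest on the trend of the variance with brightness.

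HIF target genes and marker genes of other cells moved with the same number. Of 22 measured HIF targets, 15 passed the F-test and 20 had their lowest mean in number 3, where of 18193 genes 1123 passed and 5929 had their lowest mean there. The summed signal of the targets was 45533.1, 49375.4 and 10185.4 in phd3 null and 46032.8, 31878.5 and 10537.8 in wild-type mice 1 to 3. Bnip3, a mitophagy receptor gene picked after its values were seen, had 4396.5, 4817.4 and 202.3 in phd3 null and 3949.7, 2575.4 and 195.7 in wild-type mice 1 to 3. The 10 neutrophil markers summed to 42256.2, 51141.8 and 25973.2 in phd3 null and 58782.8, 46872.3 and 43880.4 in wild type. S100a8 and S100a9 made up most of each sum. Counted by gene, 9 of the 10 had their lowest mean in number 3 and 3 passed the F-test. Summed markers of monocytes and macrophages, 5 of 7 measured, were at 4317 and 5132.1 in number 3 of phd3 null and wild type, and at 10975.8 to 13079.6 on the other arrays. Among them C1qa, a gene of tissue macrophages, did not exceed 11 anywhere. Adgre1 read 298 to 1197.8, Ccr2 284.2 to 997.4 and Cx3cr1 169.3 to 764.2 over the 6 arrays. In bulk samples fewer cells of a type and less RNA per cell cannot be told apart, and the part of these shifts in the Hif1a values was not tested.

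**Figure D2:**
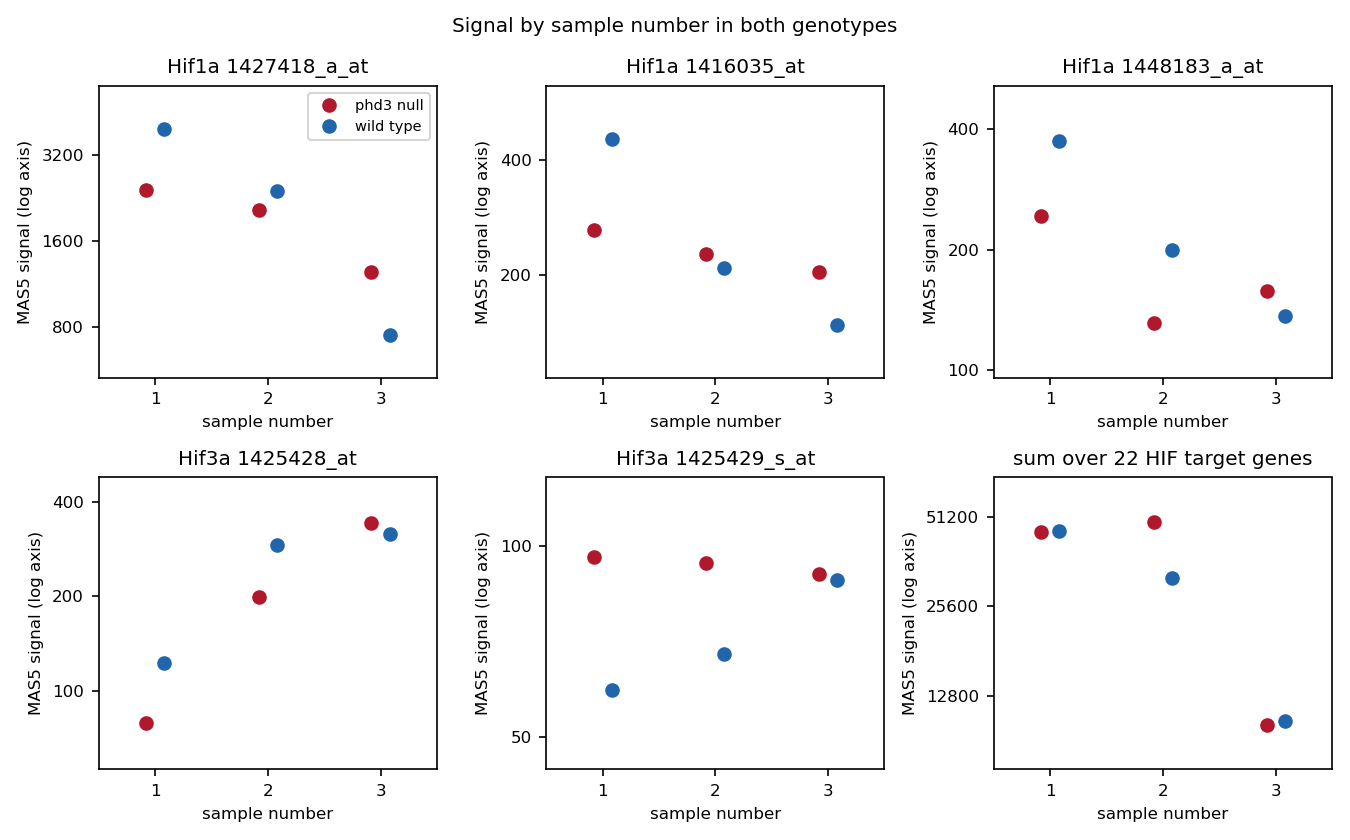
Signal (log axis) by sample number for 3 Hif1a and 2 Hif3a probe sets and for the sum over 22 HIF target genes, phd3 null in red and wild type in blue. Hif1a 1427418_a_at and the targets have their lowest value in number 3 of both genotypes, Hif3a 1425428_at its highest.

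The promoter window of Hif1a is shown because HIF itself binds the core letters ACGTG or GCGTG, and Hif1a was the bright alpha subunit. The window is from RefSeq on GRCm38.p6, chr12:73907617-73907916, plus strand, and runs from 250 bases before to 50 after the start used in that table. It lies inside the RefSeq span of the gene, which begins at 73901324. Capitals mark ACGTG or GCGTG on either strand.
Hif1a promoter: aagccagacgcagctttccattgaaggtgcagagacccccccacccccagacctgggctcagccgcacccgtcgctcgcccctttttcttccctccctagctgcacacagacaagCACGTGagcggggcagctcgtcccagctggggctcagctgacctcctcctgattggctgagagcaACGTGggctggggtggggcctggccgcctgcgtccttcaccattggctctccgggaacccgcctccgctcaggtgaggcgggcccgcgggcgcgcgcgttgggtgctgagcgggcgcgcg
It holds ACGTG 3 times. Matches on opposite strands at -135 and -134 overlap as a single palindrome, and the other lies at -70 from the start. ACGTG was present in 19.6% and GCGTG in 32.4% of 32841 promoter windows of the same length. Counted the same way, 20.7% of the windows held 2 or more matches to either. A match is a description of the letters, not of binding.

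Epas1 was dim. Its 2 probe sets were below the median brightness of all probe sets. The probe set 1435436_at read 5.2, 31.4 and 49.2 in phd3 null mice 1 to 3, against 66.5, 37.8 and 94 in wild-type mice 1 to 3. Each of the 3 pairs had the lower value in phd3 null, as did 11.5% of all probe sets, and the groups overlapped. The difference of -0.97 (SE 0.67) did not pass in limma (adjusted p = 0.9997, and 0.936 with the replicate block), and it was -0.50 without phd3 null sample 1. The probe set 1449888_at went the other way, with 71.6, 10.1 and 4.9 in phd3 null and 3.2, 48.9 and 9.5 in wild type, a difference of 0.20 (SE 0.67). The brightest probe sets of 11 genes of organs outside the blood, such as albumin and insulin 2, had a median signal of 44.2, and 10 of them stayed at or below 129.2. The exception was the oxytocin gene Oxt, at up to 295.5. Endothelial markers, from cells where Epas1 is known to be high, summed to 178.1 to 348.3 in phd3 null and 96 to 229.3 in wild type over 5 genes. Expression of Epas1 was not detectable above the level of those organ genes by these 2 probe sets.

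Hif3a, whose shorter products dampen HIF activity, had probe sets that disagreed. The probe set 1425428_at read 79, 198.4 and 340.9 in phd3 null mice 1 to 3, against 123, 290.9 and 315.9 in wild-type mice 1 to 3. Its groups overlapped and the genotype difference was -0.32 (SE 0.47). By sample number its mean log2 levels were 6.84, 8.003 and 8.43, a range of 1.58 that passed the F-test in limma (adjusted p = 0.0121). Number 3 was the highest of its genotype in both, the reverse of Hif1a. The erythroid marker Alas2, a heme synthesis gene, had mean log2 levels of 10.20, 12.09 and 12.32 by sample number (adjusted p = 0.00146 in limma), and it was also lowest in phd3 null sample 1 and highest in phd3 null sample 3. The 3 measured erythroid markers summed to 702.1, 3576.1 and 6440.1 in phd3 null and 2409.5, 5660.5 and 4310.3 in wild type. Alas2 made up most of each sum. Hba-a1 was lowest in number 1 of both genotypes. Klf1 had 113.3, 50.9 and 50.1 in phd3 null, highest in number 1, and 33.6, 53.7 and 117.1 in wild type. Neither Klf1 nor Hba-a1 passed the F-test (adjusted p = 0.938 and 0.404 in limma). The 4 NK cell markers summed to 316.9, 2241.3 and 1741.8 in phd3 null and 1090.6, 4753.9 and 2363.1 in wild type. Of these markers Ncr1 was lowest in number 3 of wild type, at 50. By genotype 4 of the 4 were lower in phd3 null, with 0 called in either fit. Their median log2 difference was -0.97, and -1.70, -0.92 and -0.41 within pairs 1 to 3. The erythroid and NK cell sums were both lowest in number 1, as was 1425428_at, and their part in its values was not tested. Without phd3 null sample 1, phd3 null sample 3 or wild-type sample 1 the adjusted p of 1425428_at in the F-test was 0.178, 0.0528 and 0.0548. With a constant prior variance it was 0.459.

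The probe set 1425429_s_at read 96.2, 94 and 90.3 in phd3 null and 59.3, 67.5 and 88.4 in wild-type mice 1 to 3. The annotation gives it the same source sequence as 1425428_at, though the probes of the pair need not read the same part of it. The phd3 null arrays lay above all wild-type arrays. Non-overlap in this direction held for 4.97% of all probe sets and for 1 of 20 here. The difference of 0.33 (SE 0.45, 95% interval -0.62 to 1.29) did not pass in limma (adjusted p = 0.9997). Its F-test by sample number gave an adjusted p of 0.981 in limma, with a range of 0.20. The suffix s marks a probe set that can read more than 1 transcript.

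The remaining 4 probe sets of Hif3a were below the median brightness. Of these 1459052_at had 105.3, 35.7 and 76.2 in phd3 null and 24.1, 12.6 and 41.8 in wild type, higher in 3 of 3 pairs with a difference of 1.04 (SE 0.64). Counting 1425429_s_at, 2 of 20 probe sets were higher in every pair, against 14.1% of all. Probe sets 1446708_at, 1447061_at and 1421572_at lay between 1.7 and 63.6 on all arrays, with differences of 0.46, 0.27 and 0.19.

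The Hif3a window is shown as the counterpart of Hif1a, since the other called probe set belongs to it. It lies at chr7:17062378-17062677 on GRCm38.p6, minus strand, with the same marking.
Hif3a promoter: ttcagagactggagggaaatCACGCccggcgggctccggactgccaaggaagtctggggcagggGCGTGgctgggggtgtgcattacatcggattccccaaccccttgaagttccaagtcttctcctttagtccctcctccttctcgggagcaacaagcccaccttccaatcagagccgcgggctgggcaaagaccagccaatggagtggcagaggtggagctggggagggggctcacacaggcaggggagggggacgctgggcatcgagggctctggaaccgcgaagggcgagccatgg
GCGTG stands in it 2 times, starting at -230 on the opposite strand and at -186, and ACGTG 0 times. The Arnt window held 1 match to either motif and the Arnt2 window 0, while 43.8% of all windows held at least 1 and 20.7% held 2 or more. Epas1 is not shown.

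Arnt, the common beta subunit, had 3 of 5 probe sets above the median brightness, and these 3 did not share a direction. The probe set 1419996_s_at had 159.1, 120 and 89.8 in phd3 null mice 1 to 3, against 131.4, 185.7 and 128.5 in wild-type mice 1 to 3, a difference of -0.26 (SE 0.38). The probe set 1437042_at had 212.9, 134.4 and 74.9 in phd3 null, against 97.7, 83.4 and 84.3 in wild type, a difference of 0.49 (SE 0.44). Leaving out phd3 null sample 1 gave 0.165, and leaving out phd3 null sample 3 gave 0.83. These 2 probe sets were above the median of their array on 6 of 6 arrays and lay on opposite sides of 0.

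The probe set 1421721_a_at had 100.5, 62.3 and 22.6 in phd3 null mice 1 to 3, against 112, 150.9 and 88.5 in wild-type mice 1 to 3. It was lower in 3 of 3 pairs, at -0.14, -1.09 and -1.44, and its groups overlapped through phd3 null sample 1. The difference of -0.89 (SE 0.52) did not pass in limma (unadjusted p = 0.105, adjusted p = 0.9997, and with the replicate block 0.0641 and 0.933), and it was -0.45 without phd3 null sample 3. Probe sets 1425064_at and 1449696_at were near the array medians, from 10.2 to 69.6, with differences of -0.47 and -0.05. Of the 5 Arnt probe sets 4 had phd3 null as the lower group, and phd3 null sample 3 was the lowest array for 4 of 5. How often that array was lowest over all probe sets was not counted. It was the array least correlated with the rest (0.729). Without that share, whether the count is particular to Arnt cannot be told.

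Arnt2, the beta subunit known mainly from neurons, was dim. The probe set 1420670_at read 33.9, 21.8 and 32.3 in phd3 null mice 1 to 3, against 49.7, 103.7 and 76.2 in wild-type mice 1 to 3. The phd3 null arrays lay below all wild-type arrays, as held for 3.56% of all probe sets and 1 of 20 here. The difference of -0.998 (SE 0.59, 95% interval -2.26 to 0.26) did not pass in limma (adjusted p = 0.9997, and 0.933 with the replicate block). The other probe sets disagreed. The probe set 1420669_at, with the same source sequence in the annotation, had 50.5, 32.6 and 3.9 in phd3 null and 56.4, 22.6 and 64.1 in wild type (-0.60, SE 0.69). The probe set 1434028_at had 36.4, 31.7 and 114 in phd3 null and 42.1, 3.2 and 2.1 in wild type, a difference of 1.34 (SE 0.71). It was 0.88 without phd3 null sample 3 and 0.58 without both arrays of number 3. All 3 lie within the range of the genes of other organs. The 2 highest values of 1420670_at were those of wild-type samples 2 and 3, where Xist was also highest, and the part of sex in them was not tested.

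**Figure D3:**
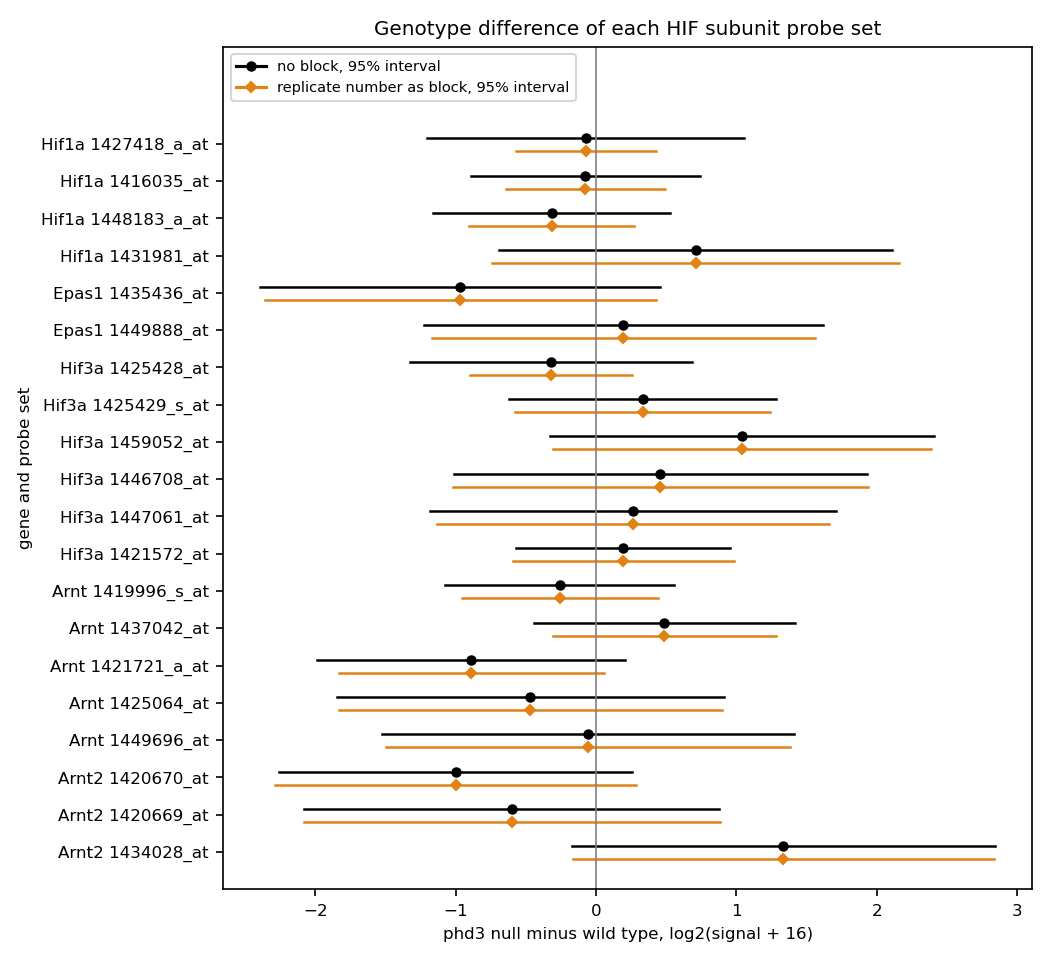
Genotype difference (phd3 null minus wild type, log2(signal + 16)) of each HIF subunit probe set with its 95% interval, in black without a block and in orange with the replicate number as a block. All intervals drawn include 0, and the block narrows that of Hif1a 1427418_a_at to -0.57 to 0.43.

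Over all 20 probe sets, 9 were higher and 11 lower in phd3 null, with a median difference of -0.06, where the median of all probe sets was 0.03. By limma 0 of 20 passed at an adjusted p under 0.05, and 0 of all 45037 probe sets did (0%). At an unadjusted p under 0.05 there were 0 of 20, against 3.07% of all. With the replicate block 0 of 20 passed, against 0.0133% of all, 6 probe sets that included Egln3 and Xist. Xist was lower in phd3 null (log2 difference -2.49, adjusted p = 0.00899 in limma with the block). The genotype groups may thus differ in sex, and its part in the differences was not tested. At an unadjusted p under 0.05 in the fit with the block there were again 0 of 20, against 5.11%.

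The summary of a gene's probe sets set the direction for Hif1a and Hif3a. When each gene was read by its brightest probe set, 5 of 5 were lower in phd3 null with a median of -0.32, where the median of 18193 genes was 0.02. When the probe sets of a gene were averaged the median was -0.09. The values for Hif1a and Hif3a were then 0.062 and 0.33, while Epas1, Arnt and Arnt2 stayed lower in phd3 null. Of the 20 probe sets 3 were lower in phd3 null in 3 of 3 pairs (Epas1 1435436_at, Arnt 1421721_a_at and Arnt2 1420670_at), against 11.5% of all probe sets, and 2 were higher in 3 of 3.

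**Figure D4:**
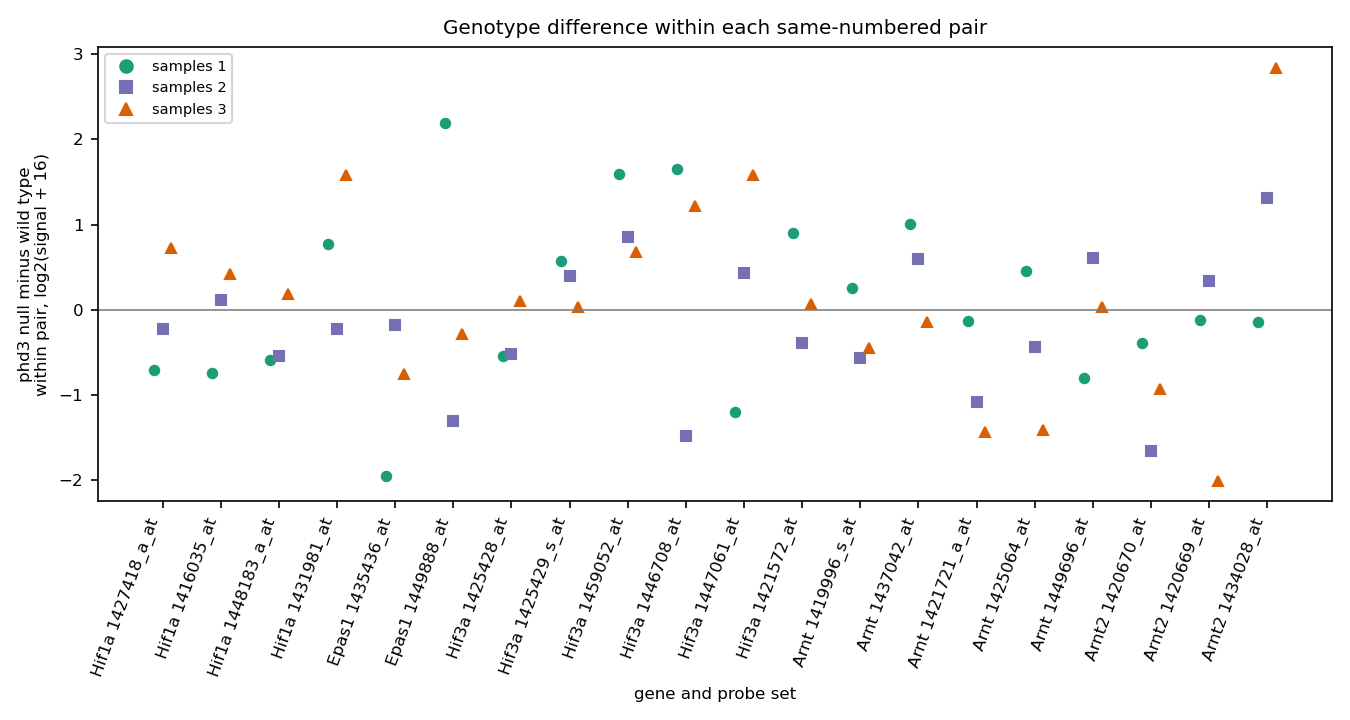
Log2 difference, phd3 null minus wild type, of each HIF subunit probe set within pairs of the same sample number. The 3 bright Hif1a probe sets lie below 0 in pair 1 and above 0 in pair 3, and the dim probe sets spread most widely.

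The wider pathway was read by the brightest probe set of each gene, from lists chosen with earlier results of these data known. Among 11 other bHLH-PAS factors 5 lay higher and 6 lower in phd3 null (median -0.06, 0 called). The smallest p-values were those of Arntl, the clock partner BMAL1 (0.65, SE 0.41), Ahr, the aryl hydrocarbon receptor gene that also pairs with ARNT (0.62, SE 0.47), and Arntl2, a paralog of Arntl (0.76, SE 0.59). Arntl had 141.6, 191.3 and 222.1 in phd3 null and 58.6, 137.1 and 159.3 in wild-type mice 1 to 3. Its groups overlapped, although each pair was higher in phd3 null. Ahr had 121.3, 90.2 and 80.4 in phd3 null and 61.1, 59.2 and 50.3 in wild type, with no overlap. Non-overlap in this direction held for 4.97% of all probe sets.

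Among 9 measured genes of the hydroxylases and the VHL ligase 4 lay higher and 5 lower (median -0.20). Egln3 was the member with a call, in the replicate block (log2 difference -3.85, adjusted p = 3.08e-05) and not without it (adjusted p = 0.181). Next were Eloc, which encodes elongin C of the VHL ligase (-0.40, SE 0.30), and Vhl itself (0.46, SE 0.34). Eloc had 551.3, 616.6 and 522.2 in phd3 null and 866.9, 733.7 and 656.9 in wild type, with no overlap. Non-overlap in this direction held for 3.56% of all probe sets. Vhl had 291.7, 220.5 and 244.7 in phd3 null and 237.7, 190.8 and 123.7 in wild-type mice 1 to 3, higher in each pair but with groups that overlapped.

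Of 8 genes for co-activators and competitors of HIF, 6 were higher and 2 lower (median 0.14, 0 called). They included Cited4 (1.19, SE 0.69), Ncoa2 (0.27, SE 0.33) and Cited2, whose protein competes with HIF for CBP and p300 (0.17, SE 0.29). Of 8 genes for other proteins that bear on HIF alpha stability, 2 were higher and 6 lower (median -0.17, 0 called). Their smallest p-values were those of the SUMO protease gene Senp1 (-0.87, SE 0.50), Sat2 (-0.82, SE 0.60) and the deubiquitinase gene Usp20 (0.91, SE 0.69). For Senp1 and Sat2 the phd3 null arrays lay below all wild-type arrays, as held for 3.56% of all probe sets.

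Of 22 HIF target genes 18 were higher and 4 lower in phd3 null, with a median of 0.30 and 0 called in either fit. Within pairs 1 to 3 their median was 0.13, 0.86 and -0.11, while Hif1a 1427418_a_at was at -0.72, -0.22 and 0.72. Ndrg1, a stress gene induced by HIF, differed by 1.06 (SE 0.46), P4ha2, a collagen prolyl hydroxylase gene, by 0.85 (SE 0.56) and Mxi1, a MYC antagonist gene, by 0.57 (SE 0.41). Ndrg1 read 1107.9, 1365 and 358.7 in phd3 null, against 659.9, 265.8 and 320.3 in wild type, so the values of number 3 lay close together. With the replicate block its adjusted p in limma was 0.533, and with the arrays of number 3 also left out 1.90e-05. That last fit held only pairs 1 and 2, which differed by 0.73 and 2.29. Its error leaned on the variance trend over all probe sets, so that p-value says little on the spread of Ndrg1. The median of the targets was 0.94 with phd3 null sample 3 left out and -0.24 with wild-type sample 3 left out.

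The genes whose profile over the 6 arrays lay closest to a subunit were found by the root mean square (RMS) difference of centred log2 values, among named probe sets above the median (18075 for Hif1a). For Hif1a 1427418_a_at these were Tmem120a, Top3a, Ptprj, Vamp3 and Vps51, at RMS differences from 0.14 to 0.16, where the median candidate was at 0.91. Ptprj, a receptor phosphatase gene, had 398.7, 417.9 and 256.9 in phd3 null and 694.7, 414.8 and 154.6 in wild-type mice 1 to 3. For Hif3a 1425428_at they were Eef1a2, Chrnb2, Inpp5f, S100a10 and Smc5 (0.07 to 0.13, median 0.83). Eef1a2, a translation elongation factor gene, had 52.8, 146 and 231.9 in phd3 null and 90.3, 199.9 and 248.7 in wild type. For Arnt 1419996_s_at they were Gm17753, Ciao2b, Stam2, Srsf9 and Ndufaf1 (0.06 to 0.08, median 0.57). For Arnt2 1420670_at they were Gm19325, Eif2s3x, Tgs1, Fabp4 and Tmem19 (0.17 to 0.22, median 0.75). Eif2s3x, an X-linked gene known to escape X inactivation, had 243, 179.3 and 209.9 in phd3 null and 303.8, 521.4 and 322.2 in wild type. Epas1 had no probe set above the median and was not searched.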

How the data were processed

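RNA from neutrophils of 6 mice was hybridised to Affymetrix arrays with biotin label, per the labels' protocols. The deposited intensity values are MAS5 signals per the submitters' processing notes, not log-transformed and scaled to a similar trimmed mean on each array. Detection calls and the version of MAS5 were not used here. The number of arrays limits the precision.

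Of 45101 probe sets 64 controls were left out. Symbols came from the platform annotation, with 34945 probe sets naming 1 gene, 932 several and 9160 unnamed. The log2(signal + 16) values were fitted with limma 3.58.1 in R 4.3.3 (eBayes with a trend, Benjamini-Hochberg adjustment over 45037 probe sets), phd3 null against wild type, with an adjusted p under 0.05 as the threshold. A fold change on this scale understates the change of dim probe sets. Lists were read by the brightest probe set of each gene. The named genes are all member probe sets, Egln3, the up to 3 list genes with the smallest genotype p and any called, and the 5 closest profiles. The members and lists were chosen with earlier results of these data known. The scripts were tested on simulated data with less noise than these arrays, so that test does not give the power or error rate here.

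The sample numbers were taken to pair the samples, since same-numbered samples share a code in their source labels and the correlations of their deviations from the genotype means were 0.264, 0.137 and 0.435. Phd3 null sample 2 correlated slightly better with wild-type sample 1 (0.147) than with its own number. Alternatives were the replicate block, pseudocounts of 1 and 64, quantile normalization, averaged or single probe sets per gene, probe sets at or above the median alone, a constant prior variance, and leaving out arrays.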

Additional observations from a re-analysis of the deposited data

How the results depend on the processing

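Of 278 values of the HIF subunit probe sets under other settings, 0 passed an adjusted p under 0.05 in limma (smallest 0.933). Leaving out settings that cannot move a difference, and counting each fit without number 3 once, 205 values remained, of which 185 kept their direction and 20 turned. The replicate block called 6 probe sets of all, 0 of them HIF subunits, where the fit without it called 0. Without the arrays of number 3 the counts were 102 with the block and 5 without it. With all arrays kept, the block changes the error and cannot change the difference. Leaving out arrays, with no block, gave 0 to 6 calls over all probe sets.

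Averaging the probe sets of a gene turned the difference of Hif1a to 0.062, Hif3a to 0.33, Ahr to -0.10 and Ncoa2 to -0.060. Without the arrays of number 3, with or without the block, Hif3a 1447061_at was at -0.39, Arnt 1425064_at at 0.0067 and Arnt2 1420669_at at 0.10.

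With arrays left out, the log2 difference ran from -0.40 to 0.35 for Hif1a 1416035_at, from -0.75 to 0.44 for 1427418_a_at and from -0.62 to 0.052 for 1448183_a_at. It ran from -0.44 to 0.71 for Epas1 1449888_at, from -0.034 to 0.44 for Hif3a 1421572_at, from -0.76 to 0.19 for 1425428_at and from -0.39 to 0.87 for 1447061_at. It ran from -0.77 to 0.0067 for Arnt 1425064_at, from -0.44 to 0.28 for 1449696_at and from -0.97 to 0.10 for Arnt2 1420669_at.

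Of probe sets that kept their direction with arrays left out, Hif3a 1446708_at ran from 0.069 to 1.11, Hif1a 1431981_at, from 0.28 to 1.15, and Arnt 1419996_s_at, from -0.44 to -0.075.

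The F-test of sample number called 2 HIF subunit probe sets, 0 after averaging, 0 with a constant prior variance and 1 to 2 with arrays left out. Over all probe sets it called 1966, against 1218 with 1 probe set per gene, 374 after averaging, 0 with a constant prior variance and 1300 to 2534 with arrays left out. The call of Hif1a 1427418_a_at held in 10 of 13 alternatives and that of Hif3a 1425428_at in 8 of 13. Of these, the F-tests with an array left out were added after seeing the data. Fewer genes are tested per gene than per probe set, and the cause of the other shifts was not tested. Dim probe sets, near the array medians, limit what can be said of Epas1 and Arnt2.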
